A study of Rattus norvegicus with 30 samples.

Results

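Genes that carry cells through mitosis, from the kinases that start it to the motors and kinetochore proteins of the spindle, were followed in the lungs of rats that had inhaled copper oxide nanoparticles. The genes were taken from a list of 42 and sorted into 9 roles. A probe on the array matched 35 of them, and all 35 were among the 18420 genes tested. The other 7, Bub1b, Melk, Kif4a, Ect2, Anln, Ncapg and Ncapd2, had no probe under a matching accession and were not analysed here. Where a gene had several probes, the probe with the highest mean lung signal over the 30 arrays stood for it.

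The animals were adult male outbred Wistar Unilever rats (strain HsdCpb:WU), 8 weeks old when supplied and acclimatised for 2 weeks, with no allele or transgene given in the labels. They breathed through the nose only, on 5 days in a row with a 6-hour equivalent a day, air without particles (0 mg/m3), a low dose of 3.3 mg/m3 or a high dose of 13.2 mg/m3. Lungs were taken 1 day after the last exposure, called day 6, or 22 days after it, called day 28, from 5 rats for each dose and day. The labels name copper oxide nanoparticles as the treatment of the 0 mg/m3 rats too, while the protocol describes these controls as given air alone. RNA of each rat, in red dye (Cy5), was hybridised with a common reference RNA in green dye (Cy3) on 1 array. Median lung signal per array was 216 to 432 intensity units, and 59.5% to 68.4% of probes were well above background. The reference is a pool of 14 rat cell lines in the channel's label and a mouse reference in the labelling protocol, and it is the same in every group. Every level below is a log2 ratio of lung over reference, so that 1 unit is a factor of 2, and each difference between groups is given with its standard error (SE).

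Mitosis is started by Cdk1 bound to B-type and A-type cyclins, after which kinesin motors build a spindle and the Ndc80 complex ties chromosomes to its microtubules. The spindle checkpoint holds the cell until every chromosome is attached, and Cdc20 then turns on the anaphase-promoting complex, a ubiquitin ligase that marks securin and cyclin B for destruction. RNA of most of these genes builds up late in the cell cycle and is low in resting cells, and most cells of the adult lung are resting. In human and mouse cells many of these genes share 2 promoter elements, the CCAAT box bound by NF-Y and the cell cycle genes homology region (CHR) bound by the DREAM and B-Myb complexes.

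The promoters below show these elements in 5 members. Cks2 and Cdk1 had the largest differences after exposure and Smc2 the smallest at the high dose, while Ccnb2 and Kif20a were picked for their several CCAAT boxes. RefSeq windows of 300 bases (250 before to 50 after the gene start, assembly GRCr8) were found for 30 of the 35 genes. The 5 windows lie at chr17:13727470-13727769 (minus strand), chr20:19265043-19265342 (plus), chr8:79981609-79981908 (minus), chr18:26504172-26504471 (plus) and chr5:71602155-71602454 (plus). Each is written 5′ to 3′ along its gene, and capitals mark every CCAAT and TTTGAA on either strand (ATTGG and TTCAAA are the same letters on the other strand).
Cks2: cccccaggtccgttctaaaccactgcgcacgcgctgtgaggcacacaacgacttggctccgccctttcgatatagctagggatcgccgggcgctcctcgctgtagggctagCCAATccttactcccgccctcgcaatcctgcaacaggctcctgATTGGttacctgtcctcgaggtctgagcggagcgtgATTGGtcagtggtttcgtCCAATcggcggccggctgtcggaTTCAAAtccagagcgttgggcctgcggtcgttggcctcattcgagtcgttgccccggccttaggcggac
Cdk1: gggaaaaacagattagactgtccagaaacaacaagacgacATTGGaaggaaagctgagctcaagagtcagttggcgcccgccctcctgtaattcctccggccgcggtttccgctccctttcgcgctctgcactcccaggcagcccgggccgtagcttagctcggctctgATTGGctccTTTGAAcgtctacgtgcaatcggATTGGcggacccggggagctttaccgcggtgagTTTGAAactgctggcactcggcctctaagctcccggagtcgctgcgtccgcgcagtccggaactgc
Ccnb2: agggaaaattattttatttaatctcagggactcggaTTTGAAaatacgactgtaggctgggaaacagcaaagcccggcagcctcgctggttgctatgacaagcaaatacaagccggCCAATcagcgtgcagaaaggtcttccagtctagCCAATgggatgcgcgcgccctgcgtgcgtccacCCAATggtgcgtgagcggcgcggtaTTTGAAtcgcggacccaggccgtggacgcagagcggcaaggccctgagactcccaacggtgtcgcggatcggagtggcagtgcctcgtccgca
Kif20a: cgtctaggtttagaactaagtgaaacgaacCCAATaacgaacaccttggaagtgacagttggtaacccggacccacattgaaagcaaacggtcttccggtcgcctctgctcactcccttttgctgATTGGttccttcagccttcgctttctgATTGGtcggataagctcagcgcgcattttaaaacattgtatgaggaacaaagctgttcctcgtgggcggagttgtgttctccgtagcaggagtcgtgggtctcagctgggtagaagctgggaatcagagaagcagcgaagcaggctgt
Smc2: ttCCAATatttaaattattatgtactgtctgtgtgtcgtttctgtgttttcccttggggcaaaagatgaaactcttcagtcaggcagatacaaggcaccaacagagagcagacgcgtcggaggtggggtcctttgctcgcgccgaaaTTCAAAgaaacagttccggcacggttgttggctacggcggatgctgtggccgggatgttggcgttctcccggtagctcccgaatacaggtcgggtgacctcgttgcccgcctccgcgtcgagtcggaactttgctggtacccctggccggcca

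The letters TTTGAA of the CHR were in 21 of the 30 windows and in 18.1% of all 27457 windows of the same length. CCAAT was in 22 of the 30 and in 37.7% of all, and occurred at least 2 times in 15 of the 30 and in 11.5% of all. Both were in 17 of the 30 and in 7.25% of all. An E2F site, searched as TTTGGCGC and as TTTCGCGC, was in 1 window for each form, against 0.521% and 0.342% of all windows. Matches of different motifs shared bases in 1 of the 30 windows. Cks2 held 4 CCAAT boxes and 1 CHR, the latter 19 bases before the start, and Cdk1 held 3 and 2. Kif20a held 3 CCAAT boxes and no TTTGAA in this window. These are matches of letters and not measured binding sites. Smc2, which did not pass the test after exposure, also held 1 of each. Bub1, which rose by 2.19 at the high dose on day 6, held neither. Cdca8, with a smaller rise, held 4 CCAAT boxes and 1 CHR. Whether the letters went with the size of the rise was not tested.

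The day after exposure ended, mitosis genes stood higher in high dose lungs than in air lungs for nearly the whole set. In the limma fit over all genes, 33 of 35 were higher at an adjusted p of 0.05 and 0 were lower, while of all 18420 genes 21% were higher and 15.5% lower. Among these 33, Cdca8, Nek2 and Kif2c reached the 5 arrays well above background that testing required only with arrays of exposed rats. The median difference of the 35 was 1.37, beside 0.01 over all genes. Differences ran from 0.14 to 2.99 over the 35 and from -3.43 to 6.28 over all genes. All 5 high dose rats lay above all 5 air rats for 32 of the 35, as they did for 16.8% of all genes. With a fold threshold of 1.5 as well, 30 of the 35 passed, beside 9.65% of all genes. Both genes that did not pass, Aurkb and Smc2, had positive differences with intervals that span 0. Of all genes called, 57.6% were higher, a share that was 43.5% with each array centred on its median instead, and the members' count was then 32.

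**Figure D1:**
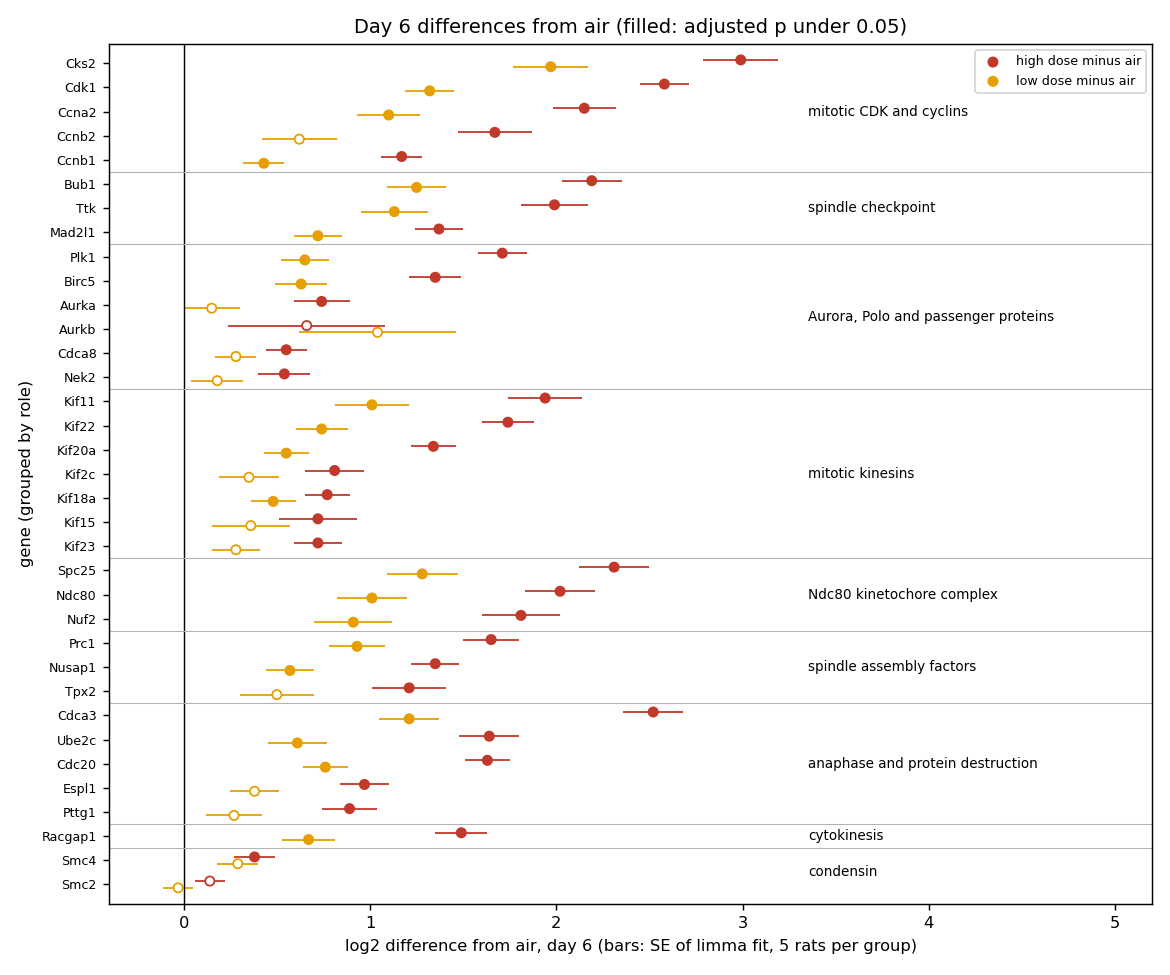
Log2 difference from air rats on day 6 for each of the 35 mitosis genes, grouped by role, with high dose minus air in red and low dose minus air in orange (points: limma estimates; bars: SE; 5 rats a group; filled where the adjusted p was under 0.05). The high dose points run from 0.14 for Smc2 to 2.99 for Cks2, and the low dose point lies left of the high dose point for every gene but Aurkb.

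In lungs of low dose rats 22 of the 35 genes were higher than in air lungs and 0 were lower, beside 4.96% of all genes higher and 1.75% lower. The median difference was 0.63, and the rats did not overlap for 27 genes, against 5.35% of all genes. Tested against each other, high dose lungs were above low dose lungs for 27 of the 35 genes (8.01% of all genes), with a median difference of 0.78. The group means ran air, low dose, high dose in 33 of the 35. All high dose rats lay above all low dose rats for 26 of the 35 genes, against 5.86% of all genes, and for these the low dose rats also all lay above the air rats. Among the genes called at the high dose, the low dose difference was 0.20 to 0.76 of the high dose difference on the log2 scale, with a median of 0.47. Because whole lung was measured, a larger number of dividing cells and more RNA per cell cannot be told apart in any of these differences.

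The kinase and cyclin genes that start mitosis had the largest median difference of the 9 roles at the high dose, 2.15, and all 5 were higher. Cks2 encodes a small subunit that binds the cyclin-dependent kinases. Its log2 ratios on day 6, in order of rat number here and below, were -5.15, -4.38, -5.20, -4.56 and -5.21 in air rats, -2.64, -2.63, -3.64, -2.88 and -2.85 in low dose rats and -2.15, -2.24, -1.81, -1.79 and -1.54 in high dose rats. The 3 groups did not overlap, and the lowest value of the low dose group, rat 49, still lay above every air rat. Cks2 rose by 2.99 ± 0.20 (adjusted p = 2.21e-12) at the high dose, 7.96-fold, and by 1.97 ± 0.20 (adjusted p = 6.05e-08) at the low dose, where it ranked 26 among the rises of all 18420 genes. Cdk1, the kinase itself, gave -4.65, -4.35, -4.76, -4.84 and -4.55 in air rats, -3.39, -2.89, -3.83, -3.39 and -3.04 in low dose rats and -2.23, -2.05, -1.91, -2.01 and -2.03 in high dose rats. Again the groups were apart, and Cdk1 rose 6-fold at the high dose (2.58 ± 0.13 (adjusted p = 1.28e-14)) and 2.5-fold at the low dose (1.32 ± 0.13 (adjusted p = 3.17e-08)). The B-type cyclin Ccnb1 gave -3.55, -3.41, -3.59, -3.38 and -3.35 in air rats, -3.04, -2.75, -3.31, -3.06 and -2.94 in low dose rats and -2.30, -2.44, -2.14, -2.32 and -2.23 in high dose rats. Its groups also kept apart, over smaller steps of 0.43 ± 0.11 (adjusted p = 0.0162) from air to the low dose and 0.73 ± 0.11 (adjusted p = 4.59e-05) from low to high. Cyclin A2, Ccna2, rose by 2.15 ± 0.17 (adjusted p = 1.08e-10) at the high dose and 1.1 ± 0.17 (adjusted p = 6.19e-05) at the low dose, and a second probe for it gave 2.59 and 1.41. Ccnb2, the other B-type cyclin, rose by 1.67 ± 0.20 (adjusted p = 1.09e-07) at the high dose. At the low dose its difference was 0.62 ± 0.20 (adjusted p = 0.0511), which missed the threshold, although all 5 low dose rats lay above all 5 air rats.

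**Figure D2:**
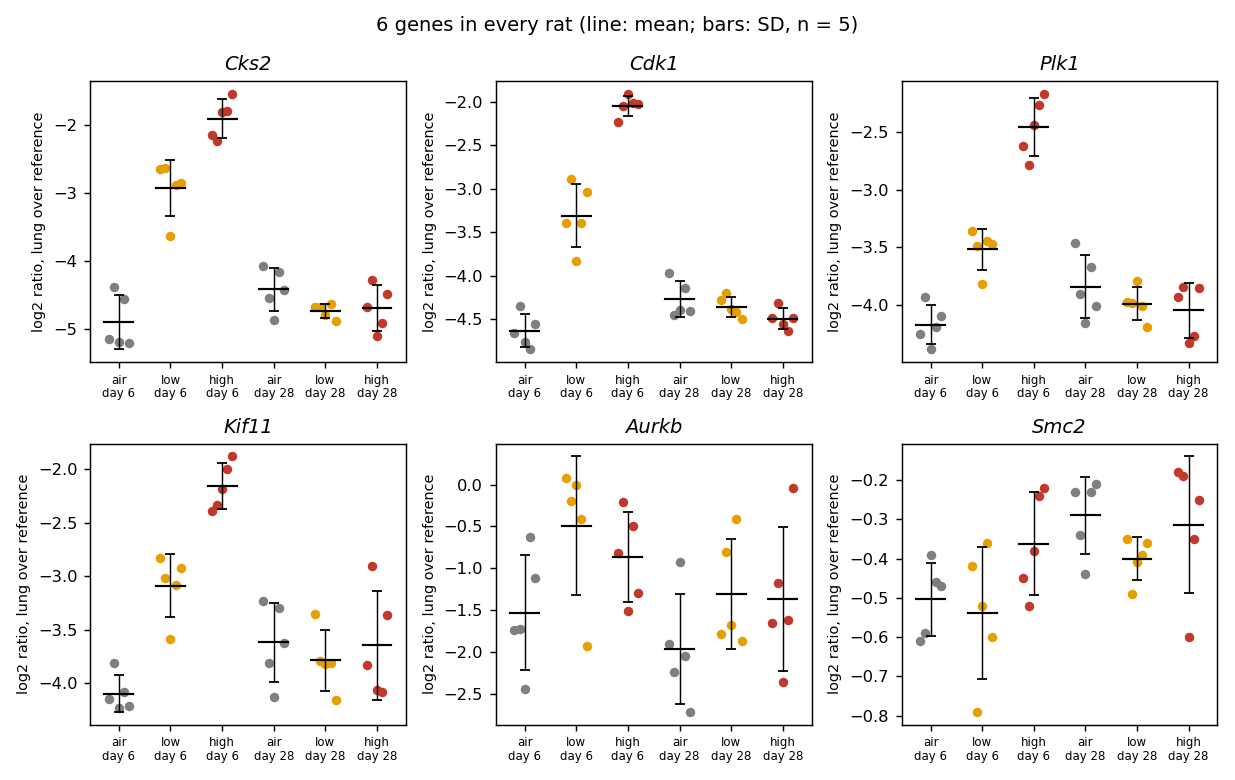
Log2 ratio of lung over reference in every rat for 6 mitosis genes, by dose and day (points: rats; line: mean; bars: SD, n = 5 rats). Cks2, Cdk1, Plk1 and Kif11 step up from air to low to high dose on day 6 and lie near air on day 28, while the Aurkb and Smc2 groups overlap.

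The 3 measured spindle checkpoint genes were all higher at both doses. Mad2l1 encodes Mad2, which holds back Cdc20 while chromosomes are unattached. It gave -3.45, -3.30, -3.45, -3.53 and -3.61 in air rats, -2.87, -2.29, -3.13, -2.88 and -2.57 in low dose rats and -2.18, -2.26, -1.92, -2.18 and -1.96 in high dose rats. No group overlapped the next, and Mad2l1 rose by 1.37 ± 0.13 (adjusted p = 3.47e-09) at the high dose and by 0.72 ± 0.13 (adjusted p = 0.000526) at the low dose. The checkpoint kinases Bub1 and Ttk rose further, by 2.19 ± 0.16 (adjusted p = 2.4e-11) and 1.99 ± 0.18 (adjusted p = 7.85e-10) at the high dose. At the low dose their differences were 1.25 ± 0.16 (adjusted p = 4.15e-06) and 1.13 ± 0.18 (adjusted p = 6.99e-05).

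Among the Aurora and Polo kinases and the passenger proteins, 5 of 6 were higher at the high dose and 2 of 6 at the low dose. Plk1, the Polo-like kinase that acts from mitotic entry to cytokinesis, gave -4.25, -3.93, -4.38, -4.19 and -4.09 in air rats, -3.36, -3.49, -3.82, -3.44 and -3.47 in low dose rats and -2.62, -2.79, -2.44, -2.27 and -2.17 in high dose rats. Each dose stood clear of the one beneath it, and Plk1 rose by 1.71 ± 0.13 (adjusted p = 5.91e-11) at the high dose and by 0.65 ± 0.13 (adjusted p = 0.00172) at the low dose. Birc5, or survivin, the passenger subunit that brings Aurora B to the centromere, gave -3.12, -2.96, -3.19, -3.12 and -2.93 in air rats, -2.30, -2.18, -2.68, -2.62 and -2.40 in low dose rats and -1.84, -1.92, -1.72, -1.65 and -1.42 in high dose rats. Groups were again apart, with a rise of 1.35 ± 0.14 (adjusted p = 1.65e-08) at the high dose and of 0.63 ± 0.14 (adjusted p = 0.00499) at the low dose. Aurkb, the passenger kinase Aurora B, gave -1.73, -1.72, -2.44, -0.62 and -1.12 in air rats, 0.08, -0.20, 0.00, -0.41 and -1.93 in low dose rats and -0.82, -0.21, -1.51, -0.50 and -1.29 in high dose rats. These values overlapped across all 3 groups, with an SD of 0.54 to 0.83 on day 6 where the median SD of the 35 genes was 0.15 to 0.22. The difference of Aurkb was 0.66 ± 0.42 (adjusted p = 0.23) at the high dose and 1.04 ± 0.42 (adjusted p = 0.149) at the low dose, and its 95% interval at the high dose ran from -0.20 to 1.53. Aurka, the spindle pole kinase Aurora A, rose by 0.74 ± 0.15 (adjusted p = 0.000317) at the high dose and differed by 0.15 ± 0.15 (adjusted p = 0.638) at the low dose. Cdca8, or borealin, another passenger subunit, rose by 0.55 ± 0.11 (adjusted p = 0.00026) at the high dose. It was well above background on 2 of 5 air arrays of day 6 and on all 5 at each dose. Nek2, a kinase that separates centrosomes, was not well above background in any air rat of day 6. Its log2 ratio was 0.54 higher at the high dose (adjusted p = 0.00423). Group means of its normalized lung signal were 6.83 at the high dose and 6.26 in air on the log2 scale. Because the air signal was that dim, the size of its rise is uncertain.

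All 7 measured mitotic kinesins, motors that move along spindle microtubules, were higher at the high dose, and 4 of 7 at the low dose. Kif11 pushes the spindle poles apart. Its log2 ratios were -4.15, -3.81, -4.23, -4.08 and -4.21 in air rats, -2.83, -3.02, -3.59, -3.08 and -2.92 in low dose rats and -2.39, -2.33, -2.18, -2.0 and -1.88 in high dose rats. Doses were fully separated, and Kif11 rose 3.84-fold at the high dose (1.94 ± 0.20 (adjusted p = 8.06e-09)) and 2.01-fold at the low dose (1.01 ± 0.20 (adjusted p = 0.00103)). Kif20a, which works at the central spindle in cytokinesis, gave -3.34, -3.40, -3.74, -3.70 and -3.25 in air rats, -2.97, -2.70, -3.19, -2.91 and -2.91 in low dose rats and -2.16, -2.20, -2.0, -2.22 and -2.17 in high dose rats. The high dose values lay close together, clear of the other groups, and Kif20a rose by 1.34 ± 0.12 (adjusted p = 1.47e-09) at the high dose and 0.55 ± 0.12 (adjusted p = 0.00442) at the low dose. Kif22, a motor on chromosome arms, rose by 1.74 ± 0.14 (adjusted p = 6.31e-11) and 0.74 ± 0.14 (adjusted p = 0.00054). The other 4 kinesins rose by under 1 log2 unit: Kif2c, which shortens microtubules, by 0.81 ± 0.16, Kif18a, which damps chromosome movement, by 0.77 ± 0.12, Kif15, a spindle motor, by 0.72 ± 0.21 and Kif23, of the central spindle, by 0.72 ± 0.13 at the high dose. Of these 4, Kif18a alone passed at the low dose, at 0.48 ± 0.12 (adjusted p = 0.0118). Kif2c was well above background on 2 of 5 air arrays of day 6 and on all 5 at each dose. A second probe for it gave 0.58 (adjusted p = 0.00458) at the high dose.

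The 3 measured subunits of the Ndc80 complex, which binds spindle microtubules at the kinetochore, were all higher at both doses. Ndc80 gave -4.74, -4.15, -4.61, -4.40 and -4.56 in air rats, -3.25, -3.38, -3.92, -3.63 and -3.25 in low dose rats and -2.89, -2.68, -2.22, -2.39 and -2.19 in high dose rats. High dose, low dose and air rats formed 3 separate ranges, with rises of 2.02 ± 0.19 (adjusted p = 1.35e-09) at the high dose and 1.01 ± 0.19 (adjusted p = 0.000561) at the low dose. Spc25 rose by 2.31 ± 0.19 (adjusted p = 2.41e-10) and Nuf2 by 1.81 ± 0.21 (adjusted p = 1.04e-07) at the high dose. Their low dose rises were 1.28 ± 0.19 (adjusted p = 3.84e-05) and 0.91 ± 0.21 (adjusted p = 0.00582).

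The 3 genes of spindle assembly, all of microtubule-binding proteins, were higher at the high dose. Tpx2, which activates Aurora A, gave -3.10, -2.96, -3.33, -3.30 and -3.10 in air rats, -2.65, -2.52, -2.83, -2.61 and -2.67 in low dose rats and -2.03, -2.03, -1.86, -1.90 and -1.89 in high dose rats. All low dose rats lay above all air rats here too, but the low dose difference of 0.50 ± 0.20 (adjusted p = 0.142) missed the threshold, while the high dose rise was 1.21 ± 0.20 (adjusted p = 2.24e-05). Prc1, which bundles the microtubules of the central spindle, gave -3.56, -3.14, -3.43, -2.90 and -3.37 in air rats, -2.57, -2.06, -2.48, -2.61 and -2.03 in low dose rats and -1.72, -1.66, -1.51, -1.70 and -1.56 in high dose rats. Its groups were apart, with rises of 1.65 ± 0.15 (adjusted p = 6.57e-10) at the high dose and 0.93 ± 0.15 (adjusted p = 6.67e-05) at the low dose. A second probe for Prc1 gave 0.82 (adjusted p = 0.000426) at the high dose and 0.49 (adjusted p = 0.0874) at the low dose, so the size of this change depends on the probe. Nusap1 rose by 1.35 ± 0.13 (adjusted p = 2.09e-09) and 0.57 ± 0.13 (adjusted p = 0.00405).

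Of the genes of anaphase and protein destruction, 5 of 5 were higher at the high dose and 3 of 5 at the low dose. Cdc20, the activator of the anaphase-promoting complex, gave -3.44, -3.51, -3.69, -3.61 and -3.43 in air rats, -2.97, -2.44, -2.92, -2.81 and -2.74 in low dose rats and -1.88, -1.84, -1.72, -2.09 and -2.0 in high dose rats. The groups did not overlap, and Cdc20 rose by 1.63 ± 0.12 (adjusted p = 2.4e-11) and 0.76 ± 0.12 (adjusted p = 8.09e-05). Ube2c, the ubiquitin-conjugating enzyme of that complex, gave -3.65, -3.68, -3.96, -3.74 and -3.66 in air rats, -3.13, -2.77, -3.51, -3.23 and -2.99 in low dose rats and -2.20, -2.25, -2.02, -2.05 and -1.97 in high dose rats. It too was separated by dose and rose by 1.64 ± 0.16 (adjusted p = 3.63e-09) and 0.61 ± 0.16 (adjusted p = 0.0154). Pttg1, or securin, which keeps separase inactive, gave -2.18, -2.17, -2.33, -2.37 and -2.25 in air rats, -1.88, -1.98, -2.14, -1.91 and -2.02 in low dose rats and -1.62, -1.62, -1.35, -1.23 and -1.04 in high dose rats. Its ranges were apart but close, and the rise was 0.89 ± 0.15 (adjusted p = 2.1e-05) at the high dose, with a low dose difference of 0.27 ± 0.15 (adjusted p = 0.299). Separase itself, Espl1, rose by 0.97 ± 0.13 (adjusted p = 1.43e-06) at the high dose. Cdca3, which helps to destroy the mitotic inhibitor kinase Wee1, rose by 2.52 ± 0.16 (adjusted p = 2.09e-12) at the high dose, next to Cks2 and Cdk1 in size, and by 1.21 ± 0.16 (adjusted p = 8.61e-06) at the low dose.

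Racgap1, the cytokinesis gene measured, is the partner of Kif23 in the central spindle. It gave -3.72, -3.54, -3.84, -3.83 and -3.54 in air rats, -2.93, -2.90, -3.29, -2.96 and -3.06 in low dose rats and -2.33, -2.20, -2.31, -2.10 and -2.08 in high dose rats. Dose groups were apart, with rises of 1.49 ± 0.14 (adjusted p = 2.03e-09) at the high dose and 0.67 ± 0.14 (adjusted p = 0.00241) at the low dose. Condensin compacts chromosomes. For its core subunit Smc4 the values were -1.80, -1.87, -1.50, -1.71 and -1.66 in air rats, -1.56, -1.32, -1.61, -1.30 and -1.32 in low dose rats and -1.26, -1.36, -1.04, -1.48 and -1.52 in high dose rats. Neighbouring groups overlapped, and the high dose rise of 0.38 ± 0.11 (adjusted p = 0.00983) no longer passed when arrays were centred on their medians (0.27, adjusted p = 0.157). Smc2, the other core subunit, gave -0.61, -0.59, -0.39, -0.46 and -0.47 in air rats, -0.42, -0.79, -0.52, -0.36 and -0.60 in low dose rats and -0.45, -0.52, -0.38, -0.24 and -0.22 in high dose rats. Its groups overlapped, it was not well above background in any air or low dose rat of day 6, and its high dose difference was 0.14 ± 0.08 (adjusted p = 0.195) with a 95% interval from -0.03 to 0.32.

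The high dose rats did not contribute equally. Over the 35 genes the median log2 ratio was -2.03 in rats 75 and 76, -1.79 in rats 77 and 78 and -1.59 in rat 79. Rat 79 was the highest of its group for 19 genes and rat 76 the lowest for 16. In the low dose group rat 49 was the lowest for 30 of the 35 genes, at a median of -2.97 beside -2.70 to -2.44 in the other 4. Heart muscle markers averaged 2.58 in rat 49 and -0.46 to -0.07 in the other 4, and club and goblet cell markers 5.39 and 2.95 to 3.73. Without rat 49 the low dose count was 23 and that of high against low dose 25, and the part of these markers was not tested. Leaving out 1 rat at a time kept the high dose count at 33 and put the low dose count between 19 and 23. The arrays lay on 4 slides, each scanned at its own time, and on every slide the day 6 groups were all present. Within a slide the median high dose difference of the 35 genes was 1.27, 1.45, 1.35 and 1.53, and the low dose difference was 0.79, 0.56, 0.58 and 0.82. With the slide as a fixed block 33 genes were higher at the high dose and 25 at the low dose.

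**Figure D3:**
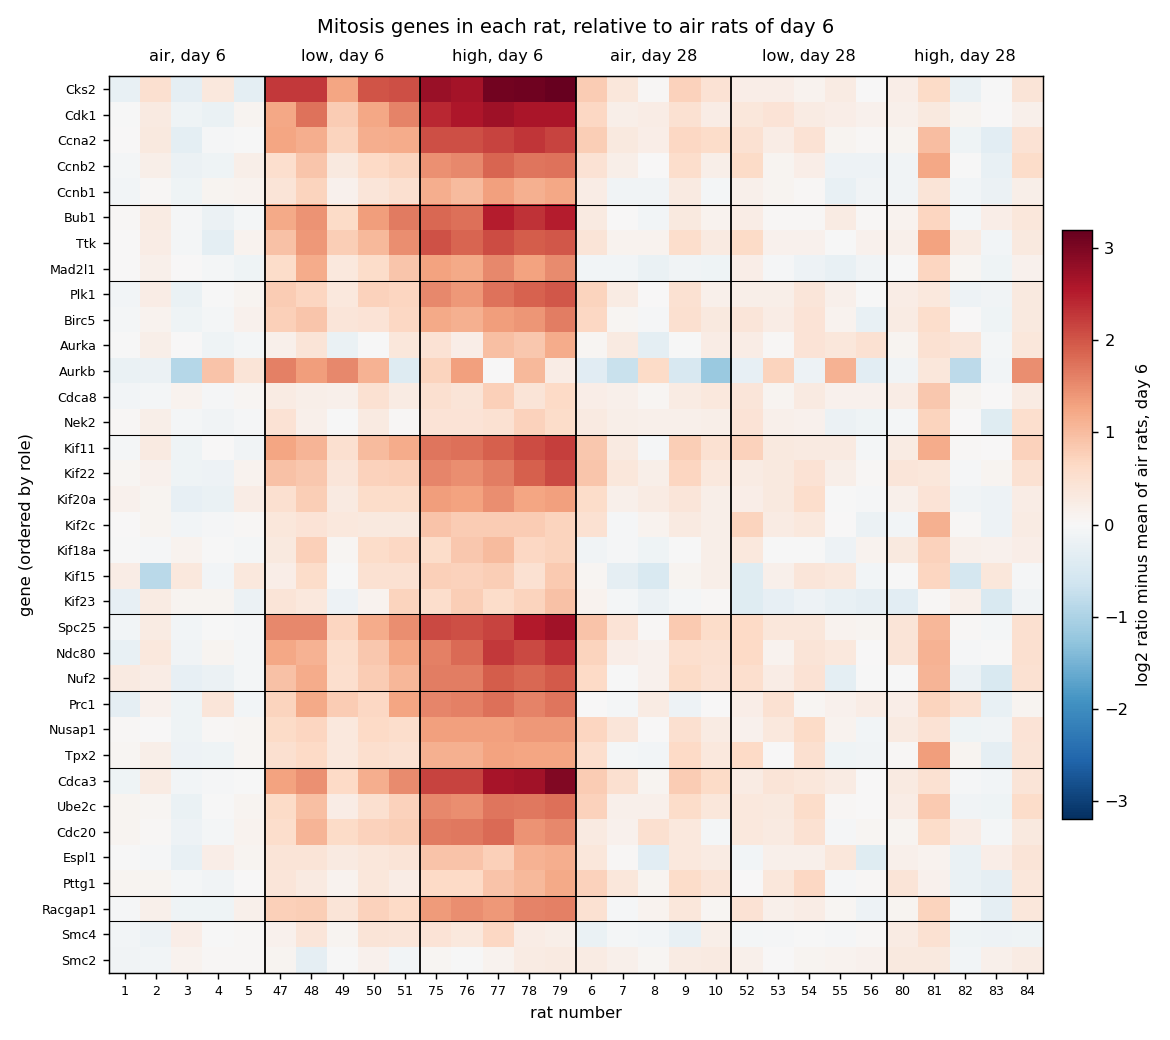
Each of the 35 mitosis genes (rows, by role) in each of the 30 rats (columns, by dose and day), as the log2 ratio minus the mean of the 5 air rats of day 6. Red cells fill the columns of the high dose rats of day 6, paler red those of the low dose rats, with rat 49 the palest of them, and rat 81 is the reddest column of the high dose group on day 28.

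By day 28, 22 days after the last exposure, 0 of the 35 genes passed at either dose against air. At the high dose 3 of the 35 had an unadjusted p under 0.05, as did 2775 of all 18420 genes, and 0.185% of all genes were called in either direction. The median difference of the 35 was -0.03 there, and -0.25 to 0.05 over the alternatives, each with 0 genes past the test: it was -0.25 with no background correction, -0.23 in the authors' table, -0.19 from processed signals and 0.05 with the slide as a fixed block. At the low dose 0 had an unadjusted p under 0.05, beside 1095 of all genes, the median was -0.10, and 0.0109% of all genes were called. High against low dose also gave 0 calls in limma, with 1 unadjusted p under 0.05, beside 480 of all genes, and 0.141% of all genes called. For Cdk1 the 95% interval of the high dose difference ran from -0.48 to 0.04, and for Cks2 from -0.68 to 0.13. The day 6 rises of these genes lie far outside those intervals.

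Within the high dose groups, 32 of the 35 genes were lower on day 28 than on day 6, beside 20% of all genes, with a median of -1.23. Within the low dose groups 20 were lower, beside 7.93% of all genes, with a median of -0.49, and 12 were lower with arrays centred on their medians or with a fold threshold of 1.5. Different rats were sampled on each day, so no rat was followed. In air rats 1 gene was higher on day 28, Kif22 at 0.49 ± 0.14 (adjusted p = 0.0462), beside 1.87% of all genes. No gene passed there when any 1 rat other than rat 8 was left out, and 9 passed without rat 8. The median air difference was 0.27, with 29 of the 35 above 0 and 15 at an unadjusted p under 0.05, where of all 18420 genes 9719 were above 0 and 4458 had such a p. This air difference was positive under every scaling tried, at 0.08 to 0.31, where centring arrays on their medians gave 0.10 with the median of all genes at -0.11. Tested as the exposure difference of day 28 minus that of day 6, 28 genes fell at the high dose (11.2% of all genes) and 15 at the low dose (1.66% of all genes). The low dose count was 4 with arrays centred on their medians.

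In the kinase and cyclin group of day 28, Cdk1 gave -3.97, -4.45, -4.39, -4.14 and -4.40 in air rats, -4.28, -4.20, -4.38, -4.41 and -4.50 in low dose rats and -4.48, -4.31, -4.55, -4.63 and -4.48 in high dose rats. Cks2 gave -4.08, -4.54, -4.87, -4.16 and -4.43 in air rats, -4.68, -4.68, -4.79, -4.64 and -4.89 in low dose rats and -4.68, -4.28, -5.11, -4.92 and -4.48 in high dose rats. Exposed and air rats overlapped for both, and no high dose rat reached the lowest high dose rat of day 6. Ccnb1 gave -3.22, -3.57, -3.56, -3.16 and -3.53 in air rats, -3.30, -3.36, -3.41, -3.69 and -3.57 in low dose rats and -3.58, -3.04, -3.55, -3.64 and -3.26 in high dose rats. The highest of these Ccnb1 values was rat 81 of the high dose group. Mad2l1, of the checkpoint, gave -3.55, -3.55, -3.67, -3.57 and -3.60 in air rats, -3.25, -3.50, -3.64, -3.70 and -3.57 in low dose rats and -3.49, -2.78, -3.40, -3.60 and -3.34 in high dose rats. Rat 81 was again the highest, at -2.78, above every air rat.

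Of the Polo and passenger genes on day 28, Plk1 gave -3.46, -3.90, -4.15, -3.67 and -4.01 in air rats, -3.97, -3.98, -3.79, -4.01 and -4.19 in low dose rats and -3.93, -3.84, -4.33, -4.27 and -3.85 in high dose rats. Birc5 gave -2.41, -2.99, -3.11, -2.55 and -2.75 in air rats, -2.68, -2.82, -2.63, -2.95 and -3.30 in low dose rats and -2.81, -2.51, -3.05, -3.21 and -2.76 in high dose rats. Groups overlapped for both genes. Aurkb gave -1.90, -2.24, -0.92, -2.04 and -2.71 in air rats, -1.78, -0.81, -1.68, -0.41 and -1.86 in low dose rats and -1.65, -1.17, -2.36, -1.61 and -0.04 in high dose rats. It had the largest day 28 differences of the 35 at both doses, 0.60 ± 0.42 (adjusted p = 0.495) at the high dose and 0.65 ± 0.42 (adjusted p = 0.76) at the low dose, and its values spanned more than 2 log2 units within the high dose group.

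Among spindle genes on day 28, Kif11 gave -3.23, -3.81, -4.13, -3.30 and -3.62 in air rats, -3.35, -3.79, -3.82, -3.81 and -4.16 in low dose rats and -3.83, -2.90, -4.06, -4.08 and -3.36 in high dose rats. Kif20a gave -2.91, -3.32, -3.22, -3.11 and -3.30 in air rats, -3.27, -3.18, -2.93, -3.49 and -3.52 in low dose rats and -3.33, -3.05, -3.61, -3.65 and -3.24 in high dose rats. Ndc80 gave -3.77, -4.29, -4.36, -3.95 and -4.01 in air rats, -3.85, -4.37, -4.09, -4.16 and -4.48 in low dose rats and -4.09, -3.38, -4.53, -4.50 and -3.97 in high dose rats. In all 3, rat 81 was the highest of its group and the other high dose rats lay within or near the air range. Tpx2 gave -2.61, -3.23, -3.24, -2.51 and -2.83 in air rats, -2.53, -3.15, -2.65, -3.30 and -3.26 in low dose rats and -3.13, -1.82, -3.07, -3.44 and -2.75 in high dose rats. The value of rat 81 for Tpx2 lay above the high dose range of day 6. Prc1 gave -3.28, -3.34, -3.03, -3.45 and -3.27 in air rats, -3.07, -2.80, -3.23, -3.14 and -3.04 in low dose rats and -3.06, -2.57, -2.80, -3.51 and -3.2 in high dose rats. For Prc1 the air and low dose rats overlapped.

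In the group of anaphase and destruction genes on day 28, Cdc20 gave -3.26, -3.39, -3.03, -3.2 and -3.60 in air rats, -3.2, -3.25, -3.04, -3.57 and -3.48 in low dose rats and -3.44, -2.94, -3.31, -3.59 and -3.22 in high dose rats. Ube2c gave -3.0, -3.57, -3.57, -3.14 and -3.37 in air rats, -3.40, -3.43, -3.14, -3.71 and -3.72 in low dose rats and -3.49, -2.90, -3.84, -3.87 and -3.16 in high dose rats. Both overlapped between doses. Pttg1 gave -1.52, -1.90, -2.18, -1.68 and -1.86 in air rats, -2.25, -1.89, -1.59, -2.31 and -2.22 in low dose rats and -1.85, -2.13, -2.48, -2.56 and -1.89 in high dose rats. It had the most negative high dose difference of the 35, -0.35 ± 0.15 (adjusted p = 0.276), with groups that overlapped. Racgap1, for cytokinesis, gave -3.2, -3.74, -3.58, -3.32 and -3.64 in air rats, -3.24, -3.52, -3.46, -3.64 and -3.86 in low dose rats and -3.61, -2.97, -3.75, -3.97 and -3.32 in high dose rats. Smc4, for condensin, gave -1.93, -1.76, -1.79, -1.94 and -1.53 in air rats, -1.76, -1.75, -1.71, -1.74 and -1.68 in low dose rats and -1.45, -1.21, -1.85, -1.87 and -1.85 in high dose rats. Neither of them separated the doses. Smc2 gave -0.23, -0.34, -0.44, -0.23 and -0.21 in air rats, -0.35, -0.49, -0.41, -0.39 and -0.36 in low dose rats and -0.18, -0.19, -0.60, -0.35 and -0.25 in high dose rats, and no low dose array of day 28 was well above background for it.

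Rat 81 of the high dose group on day 28 had high values, although the Dixon test for outlying rats given below did not flag its median. It was the highest of its group for 29 of the 35 genes, at a median of -2.66 beside -3.59 to -3.14 in the other 4 rats. It exceeded all 5 air rats of day 28 for 23 genes and lay below all 5 high dose rats of day 6 for 25. The shares of all genes for which it did so were not computed. On its slide, the median difference from the air rat there, rat 8, was 0.59, and on the other slides that held both groups it was -0.11 and -0.02. Rat 8 was the lowest air rat of day 28 for 25 of the genes. Without rat 81 the count of genes passing stayed at 0 and the median high dose difference was -0.20. Its mean macrophage marker level was 0.21 and its mean T cell marker level -0.66, both within the range of its group. Its marker means were the lowest of the group for endothelial cells at 2.49, neutrophils at 0.42, alveolar type II cells at 5.90, alveolar type I cells at 4.33, club and goblet cells at 3.13, ciliated cells at 1.98 and erythroid cells at 4.43. The part of these levels in its values was not tested.

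**Figure D4:**
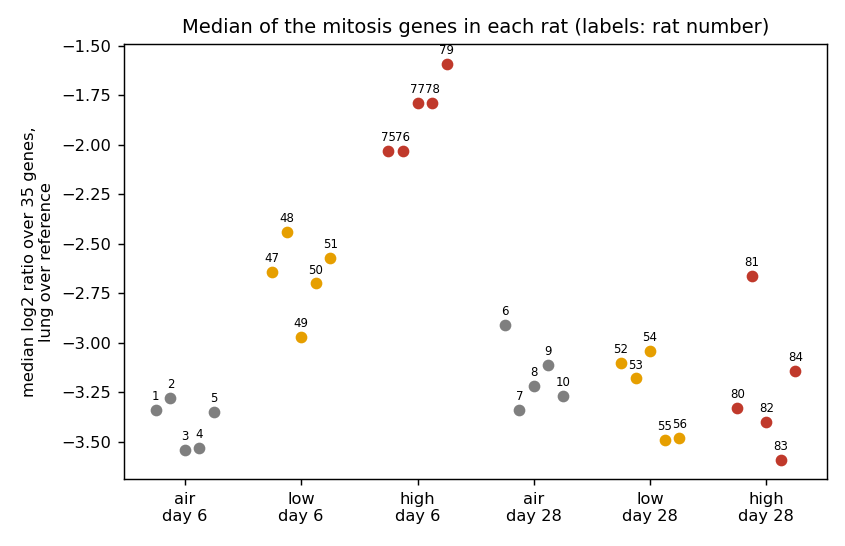
Median log2 ratio of lung over reference across the 35 mitosis genes in each rat, by dose and day, with rat numbers beside the points. The day 6 groups are separate, with air at or below -3.28, low dose from -2.97 to -2.44 and high dose from -2.03 to -1.59, and rat 81 lies above every other rat of day 28.

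In every group the mean log2 ratio was below 0 for all 35 genes, that is, the lung signal was below that of the reference, where 45.8% to 46.6% of all genes lay below 0. The median over the 35 was -3.45 in air, -2.66 in low dose and -1.89 in high dose rats of day 6, and -3.17, -3.28 and -3.30 on day 28. The lowest group mean was that of the air rats of day 6 for 27 genes and the highest that of the high dose rats of day 6 for 33. Signal was well above background on all 5 arrays for 30 genes in air rats and 34 in high dose rats of day 6. The filter asked for 5 of the 30 arrays, and 31 of the 35 would have passed it in air rats alone. Smc2 would not have, nor would Cdca8, Nek2 and Kif2c, which were called higher at the high dose. These passed the filter only with arrays of exposed rats.

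Lists of further genes covered the neighbouring steps of the cell cycle. Of 38 other spindle and kinetochore genes tested, 32 were higher and 1 was lower at the high dose on day 6, with a median of 1.06, and 13 were higher and 1 lower at the low dose. Of all genes 21% were higher and 15.5% lower at the high dose, and 4.96% and 1.75% at the low dose. The largest were Cep55, which acts in the final cut between daughter cells, at 2.48 (adjusted p = 1e-09), and the centromere genes Cenpt at 2.26 (adjusted p = 1.13e-09) and Cenpw at 2.24 (adjusted p = 3.91e-09). The gene that fell was Wee1, the kinase that holds Cdk1 inactive, at -0.64 (adjusted p = 0.000169). In air rats alone, 2 genes of this list were higher and 1 was lower on day 28 than on day 6. Those differences ran from -1.76 to 0.59, and of all 18420 genes 344 were higher and 200 lower. Whether such shifts without exposure bear on the fall of Wee1 was not tested. DNA replication genes followed, with 28 of 32 higher, 0 lower and a median of 0.70 at the high dose, and 11 higher at the low dose. Rrm2 and Tk1, which make DNA precursors, and Mcm3, of the replicative helicase, differed most, by 3.06, 2.35 and 1.44.

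The other 5 cell cycle lists had medians of -0.13 to 0.25. Beside the same 21% of all genes higher and 15.5% lower, of 14 subunits of the anaphase-promoting complex, the machine that Cdc20 and Ube2c serve, 2 were higher and 1 lower, with a median of 0.09. Anapc15 and Anapc10 rose by 0.61 (adjusted p = 2.84e-06) and 0.33 (adjusted p = 0.00904), and Anapc1 was lower, at -0.19 (adjusted p = 0.012). Of 10 cohesin genes, whose products hold sister chromatids together, 1 was higher and 3 were lower, with a median of -0.13. Pds5b, Stag2 and Stag1 were lower, at -0.57, -0.47 and -0.30, and the cohesin loader gene Mau2 rose by 0.28. Of 11 centrosome genes 4 were higher, led by Haus4 at 0.88, Nedd1 at 0.44 and Tubgcp2 at 0.27. Of 12 transcription factor genes 6 were higher and 2 lower. Foxm1 and Mybl2, which drive late cell cycle genes, and E2f1, which drives genes of DNA synthesis, rose by 1.07 (adjusted p = 1.07e-07), 0.92 (adjusted p = 2.78e-05) and 0.77 (adjusted p = 5.06e-06), while Rbl2, a repressor of the Rb family, and Tfdp2, a partner of E2F proteins, were lower, at -0.28 and -0.36. Of 17 genes of early cell cycle cyclins, their kinases and inhibitors 6 were higher and 1 lower. Cyclin E1, Ccne1, rose by 0.93 (adjusted p = 2.92e-06), Cdkn3 by 0.48 and Cdkn2d by 0.45, and the inhibitor gene Cdkn1c was lower, at -0.46. On day 28, 0 genes of these 7 lists passed against air at either dose in limma, with 0 to 6 genes of a list at an unadjusted p under 0.05, and whether the lists differed from one another was not tested.

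**Figure D5:**
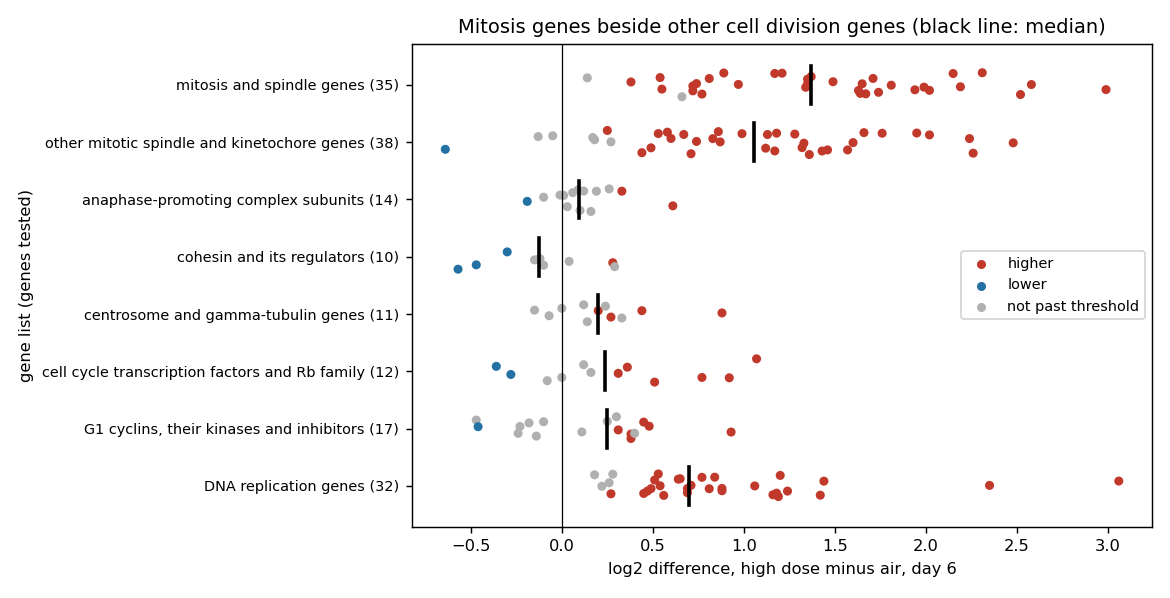
Log2 difference of high dose minus air rats on day 6 for the 35 mitosis genes and for 7 lists of other cell division genes (points: genes; red higher and blue lower at an adjusted p of 0.05, grey not past it; black line: median). Medians run from 1.37 for the mitosis genes through 1.06 for other spindle genes and 0.70 for DNA replication genes to -0.13 for cohesin genes.

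Markers of several cell types also moved on day 6. At the high dose 21% of all genes were higher and 15.5% lower, the shares beside which the counts below stand. All 10 T cell markers tested were higher at the high dose, and their mean log2 ratio was -0.06 to 0.48 in the 5 high dose rats against -0.60 to -0.32 in air rats. For macrophages and monocytes 8 of 11 were higher, with means of 0.79 to 1.94 against 0.17 to 0.35. In low dose rats the T cell means were -0.39 to 0.05 and the macrophage means 0.15 to 1.00. There 1 of 10 T cell and 3 of 11 macrophage markers were higher and 0 lower, beside 4.96% and 1.75% of all genes. Of 6 neutrophil markers 5 were higher and 1 lower at the high dose, and 5 were higher and 0 lower at the low dose. Neutrophil means were 2.03 to 2.49 at the high dose, 1.82 to 2.53 at the low dose and 0.40 to 0.74 in air. At the high dose 4 of 6 markers of alveolar type I cells were lower, 3 of 7 of endothelial cells, and 4 of 5 of erythroid cells, the last with a median of -0.55. Of 9 fibroblast and smooth muscle markers 3 were higher and 2 lower there, with differences from -1 to 1.35. Markers of alveolar type II cells, the lung's surfactant cells, had means of 5.77 to 6.75 in every rat. Of these 2 of 8 were higher and 1 lower, near the shares of all genes. Markers of heart muscle reached 4.72 in air rat 4 of day 6 against a median of -0.34 in its group, with a club and goblet mean of 5.99 in that rat, and the high dose count of mitosis genes was 33 without it too. Heart muscle means were also high in rat 49, in rat 54 of the low dose group on day 28 at 1.74 and in rat 83 of the high dose group on day 28 at 1.80. Rat 83 was the lowest of its group for 25 of the 35 genes. Without rat 83 the high dose count of day 28 was 0, with a median of 0.07, 29 genes were lower than on day 6, and 27 passed in the test of the exposure difference between days. The part of these markers in the differences of the mitosis genes was not tested.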

How the data were processed

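Each rat's deposited scanner file holds spot intensity values from Agilent Feature Extraction 11.0.1.1, per the file headers, with 62976 spots (4259 of them controls) designed on rat assembly rn4. The authors' deposited value table holds log2 ratios per probe, made by steps not described in the labels or headers. Its columns correlated at 0.997 to 1 with loess-normalized ratios made without background correction, across probes, which are not replicates. The main ratios here were background-corrected and were not part of that comparison.

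Median spot and background intensities were corrected with normexp (offset 50) and normalized by loess within each array, without weight for control and flagged spots. Probes well above background on at least 5 of 30 arrays were kept (20852 of 30367). Accessions were matched to a GRCr8 gene table, and the probe with the highest mean Cy5 signal stood for each gene (18420, of which 11331 had a symbol). All 6 group means were fitted with limma 3.58.1 in R 4.3.3 on 30 arrays. The 11 contrasts were adjusted by Benjamini-Hochberg over all genes at 0.05. The number of rats limits the precision, with a median SE of 0.115 for a difference between 2 groups. Replicates are separate rats, and their numbers are not shared between groups.

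The members, the gene lists and the tests were chosen with earlier results of these data known. Genes given rat by rat were 18 measured members that cover the roles and include those with the largest and smallest difference. Of each other list, the 3 largest changes past the threshold and any in the opposite direction were given. Alternatives changed the background correction, the scaling, the filter, the probe rule, the slide block, the arrays fitted and the fold threshold, or left out each rat.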

Additional observations from a re-analysis of the deposited data

Results flagged for a closer look

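Rats far from the other 4 of their group were sought by a Dixon test that flags about 1 group in 20 by chance. Of 114 groups of values tested for the 18 genes given rat by rat and for their medians, 4 met it. In the low dose group of day 6, rat 49 was low for Cks2 at -3.64, beside -2.88 to -2.63 in the others, and for Plk1 at -3.82, beside -3.49 to -3.36. Rat 51 of that group was low for Aurkb, at -1.93 beside -0.41 to 0.08. In the high dose group of day 6, rat 77 was high for Kif20a, at -2.0 beside -2.22 to -2.16.

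The exposure difference changed between day 6 and day 28 in a test of that change itself. At the high dose it passed for 28 of the 35 genes, all lower on day 28. Among the kinase and cyclin genes the change was -2.81 for Cdk1, -3.27 for Cks2 and -1.17 for Ccnb1. It was -1.10 for the checkpoint gene Mad2l1, -1.92 for Plk1 and -1.46 for Birc5. For the kinesins Kif11 and Kif20a it was -1.97 and -1.54, and for Ndc80 it was -2.04. The spindle assembly genes Tpx2 and Prc1 changed by -1.17 and -1.40. Cdc20, Ube2c and Pttg1 changed by -1.64, -1.77 and -1.24, and Racgap1 by -1.52. At the low dose the change passed for 15 genes, and for 4 with arrays centred on their medians. It was -1.41 for Cdk1, -2.29 for Cks2, -0.80 for Plk1, -0.74 for Birc5, -1.18 for Kif11, -0.66 for Kif20a, -1.12 for Ndc80 and -0.77 for Cdc20.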

How the results depend on the processing

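Under the 12 alternatives and with each rat left out, 0 of the 35 genes passed in any comparison of day 28, and none was lower with exposure on day 6. The high dose count of day 6 was 30 with a fold threshold of 1.5 (9.65% of all genes) and otherwise 32 or 33. The low dose count ran from 17 with median centring to 27 with only the groups compared, and high against low dose from 25 to 31. Median centring shifted all genes by up to 0.15 and lowered the low dose change between days to 4 genes, from 15. It gave 12 genes lower on day 28 at the low dose, as did a fold threshold of 1.5, beside 20. In air rats the count between days was 1, and it was 2 with no background correction, 0 with processed signals, median centring, the authors' table, no filter or a fold threshold of 1.5, and 4 with only the groups compared. With 1 rat left out it ran from 0 to 9, the highest without air rat 8 of day 28. Leaving out 1 rat gave 12 to 20 for the low dose change between days, 27 to 30 for the high dose one, and 25 to 28 for high against low dose. Smc2 at the low dose ran from -0.08 to 0.03, turning positive (adjusted p = 0.92) without rat 48; no air or low dose array of day 6 was well above background for it, so its sign is not interpretable. Of the calls at the high dose, 57.6% over all genes were higher, and 43.5% with median centring, 45.6% with Cy5 alone and 46% with the authors' table. The cause of these shifts was not tested. With the slide as a random block, 33 and 23 genes were higher at the high and the low dose. No paired analysis was possible because rat numbers are not shared between groups.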
